A study of Mus musculus with 72 samples.

Results

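Messenger RNA of the dorsal hippocampus (DH) was compared between male mice of the C57BL/6NJ (6NJ) and C57BL/6J (6J) substrains after shock and cue. The comparison used every DH library whose label named shock and cue: 6 libraries labelled 6NJ and 6 labelled 6J, 12 of the 72 libraries of the series. In the series, DH and ventral hippocampus (VH) were taken from both substrains in 3 conditions: home cage, cue without shock, and shock with cue, which is fear conditioning. Tissue was taken 30 min after the session, or directly from the home cage. The labels name no engineered allele and no agent other than the session for these groups, and no ages are stated. The 12 libraries carried codes 37A to 37C and 39A to 39C (labelled 6NJ) and 31A to 31C and 33A to 33C (labelled 6J). Each label held 2 code numbers, and no number was shared between the labels. Whether each library was made from its own animal is not stated, and p-values here describe variation among libraries, which may be technical.

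The 2 substrains descend from 1 inbred line and differ at few positions of the genome. Among known differences, C57BL/6J mice lack part of Nnt and express little Gabra2, whereas a Crb1 mutation is carried by the 6N lines. Fear conditioning is known to induce immediate early genes such as Fos and Arc in hippocampal neurons within minutes, and the DH is known for its role in memory of context. Atf4 is the transcription factor of the integrated stress response: when a kinase of that response slows translation, Atf4 protein is made and activates genes of amino acid supply, tRNA charging and redox balance.

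The 12 libraries held 33681457 to 47703347 gene counts each, and those labelled 6NJ tended to be deeper, with medians of 39990000 and 36360000. Over the 19 measures of depth, RNA composition and marker levels tested, none differed between the labels after adjustment: the lowest adjusted p was 0.411 in a two-sided exact permutation test, which cannot give a p below 0.00216. Hippocampal neurons were represented in every library, with summed levels, in CPM (counts scaled to library size), of 751 to 1129 CPM for CA1 markers and 723 to 1055 CPM for dentate granule cell markers. The summed level of 12 choroid plexus markers ranged from 125 to 3473 CPM under the label 6NJ and from 57.6 to 6789 CPM under 6J, mostly Ttr, so the dissections held very different amounts of this neighbouring tissue. Counts with and without the 3 libraries above 3000 CPM (31B, 37A and 37C) are given below.

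Nnt and Gabra2, which are known to differ between the substrains, ran against the labels. The list of known substrain genes held 13 tested gene models, with a median log2 fold change of -0.035. Under the label 6NJ, 4 of these were lower (Wdfy1, Gabra2 and models of Nnt) and 1 was higher (Crb1), against 0.707% and 1.44% of all genes. Nnt, the mitochondrial transhydrogenase that makes NADPH (chr13:119335448-119408997), lay at 19.2 to 22.9 CPM (median 20.8) in the libraries labelled 6NJ and at 37.1 to 41.5 CPM (median 39.0) in those labelled 6J. Gabra2, which encodes a GABA-A receptor subunit (chr5:70957597-71095849), lay at 108 to 124 CPM (median 115) under 6NJ and 222 to 271 CPM (median 232) under 6J. All 6 libraries labelled 6NJ were below all 6 labelled 6J for both genes, where the known differences would put 6J below. Nnt fell by 0.90 on the log2 scale (SE 0.05; adjusted p = 6.66e-17 in edgeR's quasi-likelihood test). Crb1, a cell polarity gene of the retina, was higher under the label 6NJ, with a log2 fold change of 1.17 ± 0.24 (SE; adjusted p = 0.00438). Without the 3 libraries rich in choroid plexus RNA it did not pass (log2 fold change 0.90, adjusted p = 0.0919). With all libraries kept and choroid plexus levels as a covariate, Crb1 passed (log2 fold change 1.16, adjusted p = 0.0044). Directions below are therefore given by label only, as the libraries labelled 6NJ over those labelled 6J, and adjusted p-values are those of edgeR's quasi-likelihood test unless another tool is named.

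Of 19647 genes tested, 421 differed between the labels (2.14% of genes tested): 282 were higher (1.44%) and 139 lower (0.707%) in the libraries labelled 6NJ. Without adjustment, 3311 of the 19647 genes had a p under 0.05 in edgeR's quasi-likelihood test. Most of the 421 differences were small. The median size among the 421 was 0.24 on the log2 scale, 76 genes exceeded 0.5 and 30 exceeded 1. For 221 of the 421, all 6 libraries of one label lay above all 6 of the other. Over all genes tested, 360 (1.83%) separated in this way. Without the 3 libraries rich in choroid plexus RNA, 231 genes passed, 201 of them among the 421.

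**Figure D1:**
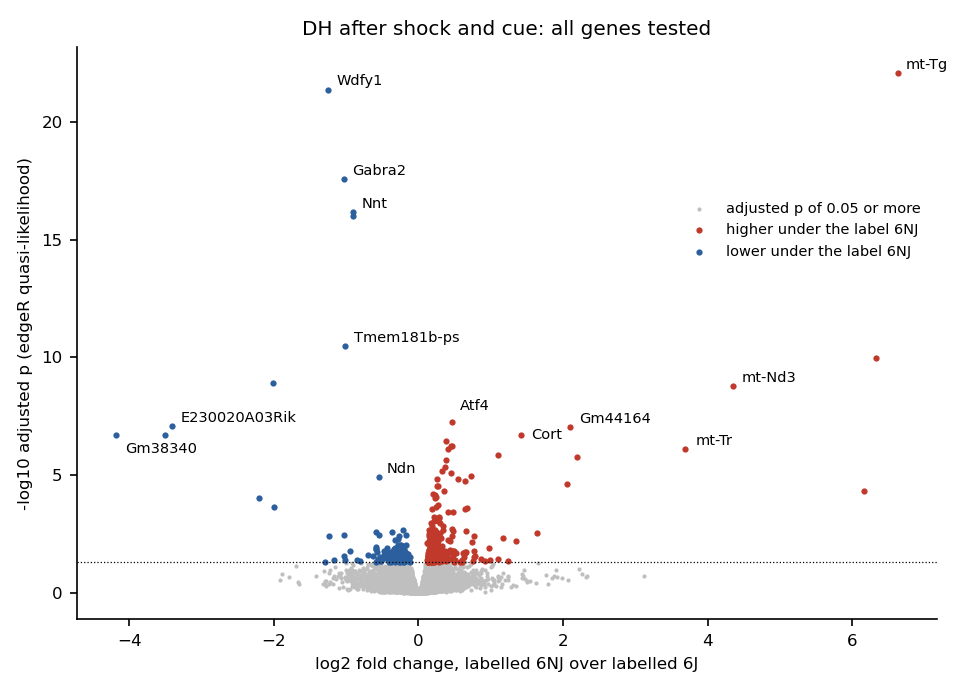
Log2 fold change (labelled 6NJ over labelled 6J) against -log10 of the adjusted p for the 19647 genes tested; red points are the 282 higher and blue points the 139 lower genes, and the dotted line marks an adjusted p of 0.05. Wdfy1, Gabra2, Nnt and the mitochondrial genes mt-Tg and mt-Nd3 stand far above the bulk of the calls, most of which have small fold changes.

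Several genes were lower under the label 6NJ without overlap between the labels. Wdfy1, an endosomal adaptor of Toll-like receptor signalling (chr1:79702262-79776143), lay at 19.02 to 22.6 CPM (median 21.3) under the label 6NJ and 47.9 to 51.2 CPM (median 49.98) under 6J. The groups did not overlap, and the log2 fold change was -1.25 ± 0.05 (SE; adjusted p = 4.26e-22). Ndn, an imprinted gene of neuronal differentiation (chr7:62346569-62350262), was at 93.1 to 118 CPM (median 112) against 134 to 194 CPM (median 157), again without overlap. Ndn fell by 0.55 on the log2 scale (SE 0.08, adjusted p = 1.24e-05). It was the only imprinted gene of 28 tested to pass, where 2.14% of all genes passed. The other gene of the NADPH and antioxidant list to fall was a second, overlapping gene model of Nnt, and no other of its 29 models passed. Among 17 GABA-A receptor subunits, Gabra2 alone passed, with a log2 fold change of -1.03 ± 0.05 (adjusted p = 2.76e-18).

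Other genes, several of them with low counts, were higher or lower under the label 6NJ. Aim2, a sensor of cytosolic DNA (chr1:173350879-173466040), lay at 4.11 to 5.95 CPM (median 4.58) against 1.85 to 2.92 CPM (median 2.10), a log2 fold change of 1.09 ± 0.14 (adjusted p = 1.43e-06). Of 26 interferon and antigen presentation genes it alone passed (2.14% of all genes passed). Gm16867 had 57 summed counts against 0, at least 16.7-fold higher when the zero is set to a floor of 3 counts over the group. The genes Gm38340, E230020A03Rik and Gm37827, of no known function, lie next to each other at chr7:36721846-36734558 and were all lower: 28 against 465, 58 against 565 and 20 against 213 summed counts. Tmem181b-ps and Tmem181c-ps, pseudogene copies of Tmem181a on chromosome 17, were also lower, with log2 fold changes of -1.01 ± 0.08 and -2.20 ± 0.34 (adjusted p = 3.36e-11 and 8.93e-05). Reads can be split among such copies, so these values are uncertain.

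On the mitochondrial genome 5 of 32 genes tested passed (15.6%, against 2.14% of all genes). All 5 were higher under the label 6NJ, and 3 of them are adjacent: mt-Tg, mt-Nd3 and mt-Tr. Sequences of mt-Tg, mt-Nd3 and the nuclear pseudogene Gm28438 (chr1:24612775-24613119) are shown because reads of near-identical copies are hard to assign. For mt-Nd3 and Gm28438 the first 60 bases are given, 5′ to 3′ on the gene's strand, and the capital marks the base at which they differ; for mt-Tg the whole gene is given. All come from the GENCODE transcripts of GRCm38.
mt-Nd3: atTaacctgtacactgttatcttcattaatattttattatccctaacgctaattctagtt
Gm28438: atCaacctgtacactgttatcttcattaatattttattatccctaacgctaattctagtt
mt-Tg: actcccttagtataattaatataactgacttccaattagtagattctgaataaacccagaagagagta
Over 345 bases compared, T3C was the only difference, counted from the first base of mt-Nd3. mt-Nd3, a core subunit of complex I (MT:9459-9806), lay at 5.46 to 8.52 CPM (median 6.24) under the label 6NJ and 0.233 to 0.375 CPM (median 0.326) under 6J in the gene counts. The estimated transcript counts gave another picture: mt-Nd3-201 lay at 917 to 1460 CPM (median 1121) against 750 to 968 CPM (median 882), with overlap, a log2 fold change of 0.36 ± 0.11 and no call (adjusted p = 0.182). The 19.9-fold difference in the gene counts, at levels far below the estimated ones, was thus not seen in the transcript estimates. mt-Tg, the glycine tRNA directly before it (MT:9391-9458), had 1055 summed counts against 9. mt-Tr, the arginine tRNA directly after it (MT:9808-9875), had 139 against 9. Gm28438 did not pass (adjusted p = 0.159), but 5 of the 6 libraries labelled 6NJ held 0.374 to 0.667 CPM of it, against 5.53 to 7.73 CPM under 6J. The other one, 39C, held 8.06 CPM. The tRNA genes mt-Tf and mt-Tv also rose, by 0.64 and 0.61 on the log2 scale (adjusted p = 0.0187 and 0.0195), and none of the other 12 protein-coding genes passed. Whether reads moved between mt-Nd3 and its nuclear copy was not tested.

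Atf4 and genes it is known to activate were higher under the label 6NJ. Of 21 gene models tested, 10 rose and none fell (against 1.44% and 0.707% of all genes), and the median log2 fold change was 0.14 against -0.004 over all genes. The gene lists were chosen with earlier results of these data known, so such counts are descriptive and no independent sign of enrichment. Atf4 itself (chr15:80255184-80257541) lay at 115 to 133 CPM (median 125) under the label 6NJ and 85.7 to 98.8 CPM (median 87.6) under 6J. No library overlapped, and the log2 fold change was 0.46 ± 0.05 (SE; adjusted p = 5.55e-08). Chac1, which degrades glutathione (chr2:119351229-119354381), was at 4.62, 5.11, 3.91, 5.46, 5.27 and 3.92 CPM in libraries 37A to 39C, and at 2.78, 2.94, 2.85, 2.95, 2.63 and 2.93 CPM in 31A to 33C. Every library labelled 6NJ was thus above every library labelled 6J, with a log2 fold change of 0.73 ± 0.10 (adjusted p = 1.04e-05). Mthfd2, a mitochondrial enzyme of one-carbon metabolism, was at 7.33 to 9.25 CPM (median 8.56) against 5.12 to 6.95 CPM (median 5.36) and rose by 0.54 on the log2 scale (adjusted p = 1.40e-05).

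The aminoacyl-tRNA synthetases of the list rose by smaller amounts. Cars, which charges cysteine tRNA, lay at 33.8 to 40.0 CPM (median 36.2) against 25.8 to 30.0 CPM (median 28.6), with no overlap and a log2 fold change of 0.38 ± 0.04 (adjusted p = 3.56e-07). Gars, Nars and Sars had log2 fold changes of 0.22, 0.17 and 0.14 (adjusted p = 0.00345, 0.0056 and 0.0493). Asns, asparagine synthetase, rose by 0.24 (adjusted p = 0.00256) without overlap between the labels, and Aldh18a1, an enzyme of proline synthesis, by 0.19 (adjusted p = 0.0446). Atf5, a related transcription factor, rose by 0.41 ± 0.09 (adjusted p = 0.00535). Members that did not pass were of several kinds. Ddit3 had log2 fold changes of 0.12 and 0.09 in its gene models, and Trib3, at 0.183 to 0.519 CPM under 6NJ, one of 0.28. Psat1, Phgdh, Shmt2 and Slc3a2, which serve amino acid supply, had log2 fold changes of 0.03, -0.07, 0.12 and -0.04. Sesn2 had one of 0.13. Slc7a11, the cystine transporter, had a log2 fold change of -0.39 (adjusted p = 0.101), while DESeq2 and limma-voom called it lower (adjusted p = 0.0381 and 0.04). Sars and Aldh18a1 were the members closest to the threshold, and when each of the 12 libraries was left out in turn, they passed 2 and 3 times (highest adjusted p = 0.147 without 37B and 0.137 without 39A).

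Promoters of the list were searched for TGATGNAA, the core of the element that Atf4 is known to bind with C/EBP partners, on both strands (TTNCATCA on the reverse). The search covered 250 bases before to 50 bases after the start site, in RefSeq sequences of GRCm38.p6. Of the 10 genes that rose, 8 had a promoter in the table and 3 of these held the motif: Chac1, Asns and Gars. Among members that did not pass, 2 of 8 held it, Trib3 and Slc7a11. It was found in 2.29% of 12850 promoters of genes tested and in 3.97% of all 32851. The stretches around the match in the 3 genes that rose are shown 5′ to 3′ on the gene's strand, with the match in capitals.
Chac1, chr2:119351003-119351102 (+): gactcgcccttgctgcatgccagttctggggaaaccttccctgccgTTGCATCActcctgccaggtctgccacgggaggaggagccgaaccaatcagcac
Asns, chr6:7693179-7693278 (-): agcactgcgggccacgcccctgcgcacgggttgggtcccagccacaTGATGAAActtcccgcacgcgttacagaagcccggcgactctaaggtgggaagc
Gars, chr6:55037925-55038024 (+): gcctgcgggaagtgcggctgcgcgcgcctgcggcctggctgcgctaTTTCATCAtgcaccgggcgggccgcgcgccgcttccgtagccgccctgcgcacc
A match is a run of letters and not a shown binding site.

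**Figure D2:**
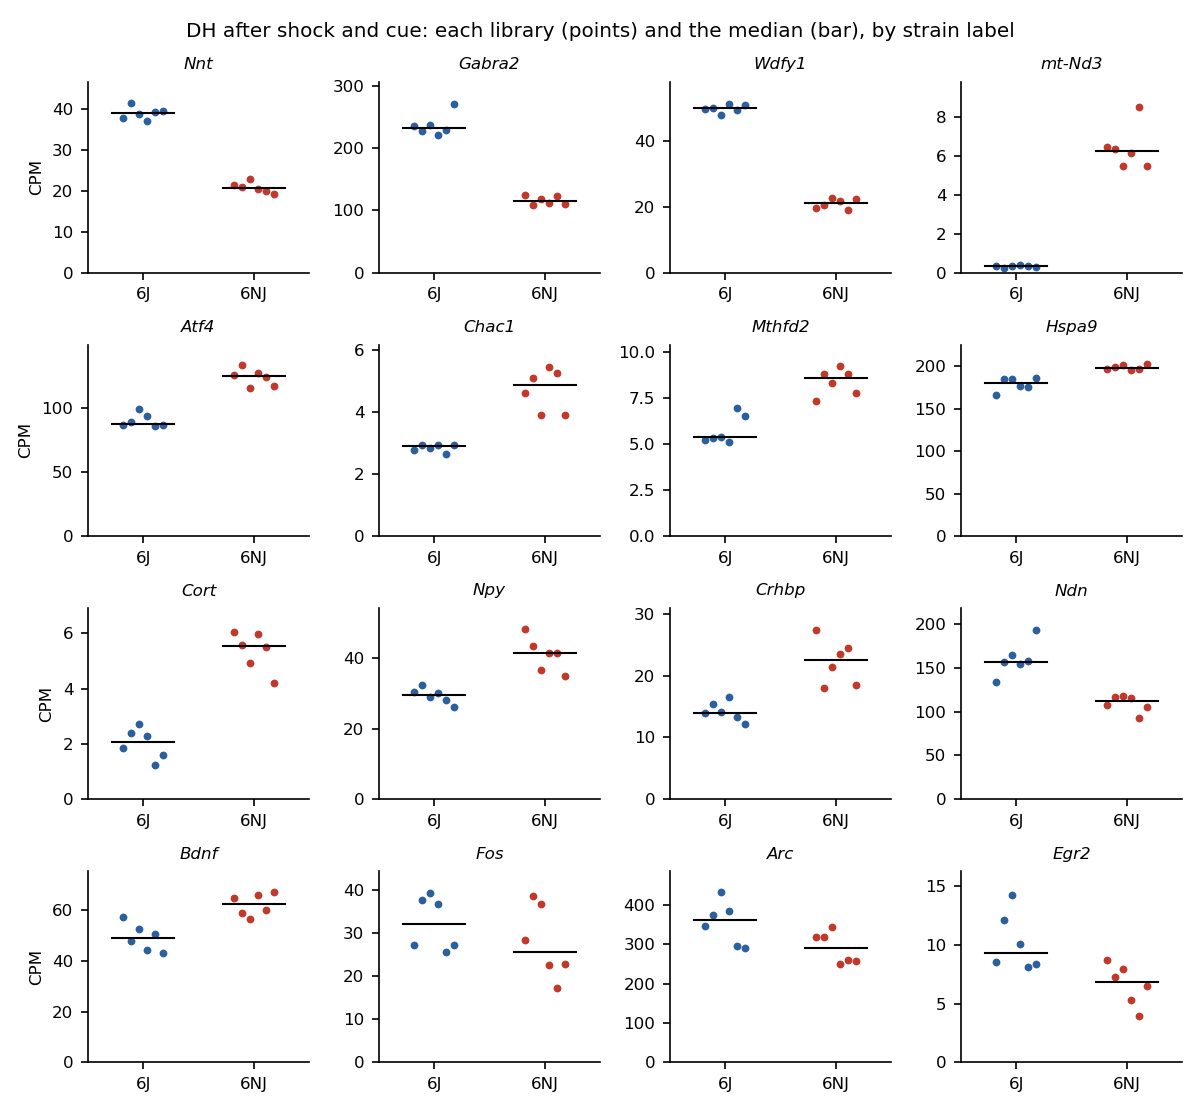
CPM of 16 genes in each of the 12 DH libraries taken after shock and cue, by strain label, with the median as a bar; every vertical axis starts at 0. The labels separate completely for Nnt, Gabra2, Wdfy1, mt-Nd3, Atf4, Chac1, Mthfd2, Hspa9, Cort, Npy, Crhbp and Ndn, and overlap for Bdnf, Fos, Arc and Egr2.

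Heat shock chaperones were also higher in part. Of 16 tested, 4 rose and none fell (against 1.44% and 0.707% of all genes), all 16 had log2 fold changes above 0, and the median was 0.18. The members that rose were Hspa9, Hspd1 and Hspe1, which fold proteins inside mitochondria, and Ahsa1, an activator of Hsp90. Hspd1 lay at 102 to 109 CPM (median 104) under the label 6NJ and 88.4 to 97.7 CPM (median 92.4) under 6J, without overlap and with a log2 fold change of 0.18 ± 0.05 (adjusted p = 0.0423). Hspa9 had a log2 fold change of 0.15 ± 0.03 (adjusted p = 0.00395), Ahsa1 of 0.22 ± 0.05 (adjusted p = 0.0233) and Hspe1 of 0.24 ± 0.07 (adjusted p = 0.0418). The stress-inducible Hspa1a and Hspa1b had log2 fold changes of 0.45 and 0.59 and did not pass (adjusted p = 0.17 and 0.11). These calls were less firm than those of Atf4: without the 3 libraries rich in choroid plexus RNA only 1 member passed, and leaving out single libraries left 1 to 3. Hspd1 passed 1 of 12 times (highest adjusted p = 0.098, without 33A), Hspe1 2 times (0.121, without 39A), Ahsa1 9 times (0.0809, without 39A) and Hspa9 12 times. With only the groups compared, Hspa9 had an adjusted p of 0.0563. With choroid plexus or oligodendrocyte levels as a covariate, 4 and 2 members of the list passed. Of 15 endoplasmic reticulum chaperones 0 passed in edgeR, DESeq2 or limma-voom, 0 had an unadjusted p under 0.05, and their median was 0.18. Hspa5, the main chaperone of that compartment, lay at 194 to 317 CPM against 166 to 242 CPM, which overlap (log2 fold change 0.27, adjusted p = 0.524).

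In the lists of complex I subunits and cytosolic ribosomal proteins, 1 and 3 genes rose and none fell (against 1.44% and 0.707% of all genes). All 37 nuclear complex I subunits tested had log2 fold changes above 0, with a median of 0.10, and 1 of them, Ndufa10, passed (0.18 ± 0.05, adjusted p = 0.0411). All 44 cytosolic ribosomal protein genes were above 0 too, with a median of 0.13, and Rpl6, Rpl23 and Rpl27 passed (0.21, 0.28 and 0.25). Of all genes tested, 9529 of 19647 were above 0. The medians of the 2 lists were 0.073 and 0.096 after the cue, 0.015 and 0.006 in the home cage, and 0.012 and -0.014 in VH. With single libraries left out, Ndufa10 and Rpl27 passed 3 of 12 times (highest adjusted p = 0.119 without 37B and 0.108 without 39B) and Rpl23 9 of 12 (0.059 without 33B).

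**Figure D3:**
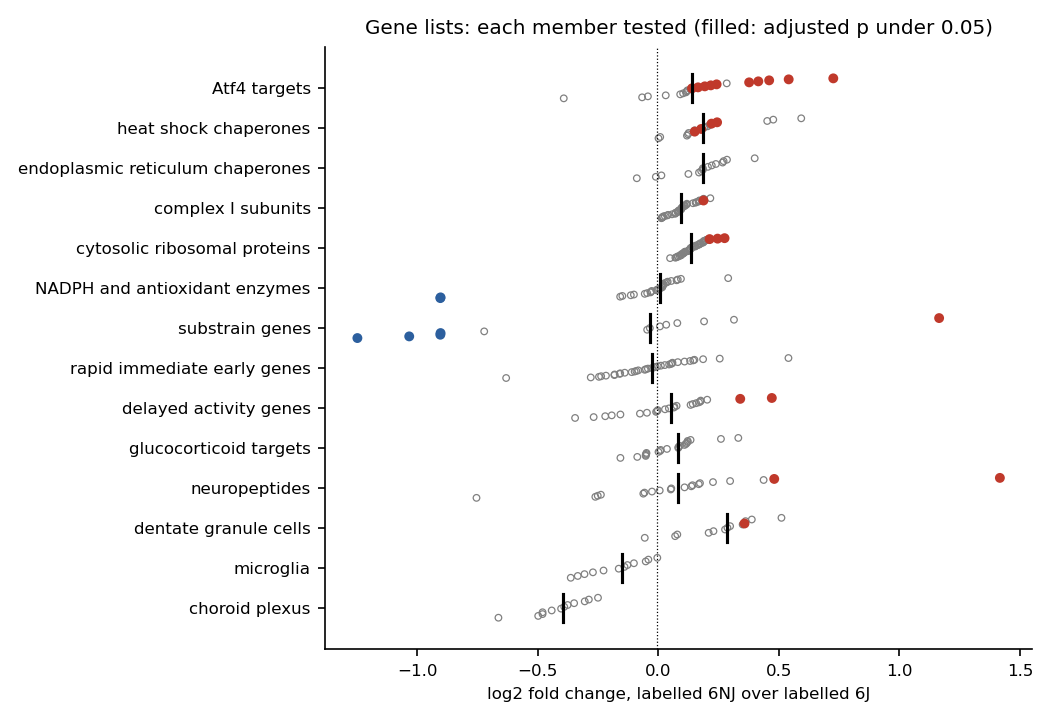
Log2 fold change (labelled 6NJ over labelled 6J) of each tested member of 14 gene lists; filled points passed the test, open points did not, black bars mark the list medians and the dotted line the median of all genes tested (-0.004). Atf4 targets hold 10 filled points, all to the right, while no member of the rapid immediate early genes is filled.

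The activity genes that shock and cue are known to induce did not separate the labels. Of 35 rapid immediate early genes 0 passed in edgeR (5 with an unadjusted p under 0.05), 1 each in DESeq2 and limma-voom, and their median log2 fold change was -0.03. Fos was at 28.3, 38.6, 36.8, 22.6, 17.3 and 22.9 CPM in 37A to 39C and at 27.3, 37.7, 39.1, 36.6, 25.6 and 27.2 CPM in 31A to 33C. The labels overlapped, and the 3 lowest values were those of 39A to 39C. Arc, which acts at synapses, had the same 3 libraries lowest, at 250, 261 and 257 CPM, against 290 to 432 CPM under 6J (log2 fold change -0.28, 95% interval -0.52 to -0.04, adjusted p = 0.215). Egr2, a transcription factor, lay at 3.97 to 8.74 CPM (median 6.86) against 8.15 to 14.3 CPM (median 9.31), with a log2 fold change of -0.63 ± 0.19 (adjusted p = 0.0731). Egr2 was the member that DESeq2 and limma-voom called lower (adjusted p = 0.0254 and 0.0127), and its 39A to 39C values of 5.32, 3.97 and 6.49 CPM were again the 3 lowest.

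Of 24 genes of the delayed activity response 2 rose and none fell (against 1.44% and 0.707% of all genes). Bdnf, the neurotrophin of synaptic plasticity, lay at 56.4 to 67.2 CPM (median 62.4) against 43.1 to 57.1 CPM (median 49.1), with a log2 fold change of 0.34 ± 0.08 (adjusted p = 0.0227). Bdnf passed 7 of 12 times with single libraries left out (highest adjusted p = 0.0709, without 33C), and not with the low-count filter removed (0.0585) or without the 3 libraries rich in choroid plexus RNA (0.0769). With choroid plexus levels as a covariate, Bdnf passed (adjusted p = 0.0234). Acvr1c, a receptor of the activin family, lay at 20.8 to 27.2 CPM (median 23.8) against 14.01 to 19.1 CPM (median 17.3) and rose by 0.47 ± 0.08 (adjusted p = 0.000373). Of 21 glucocorticoid targets 0 passed in the 3 tools, with a median of 0.08. In edgeR 5 of them had an unadjusted p under 0.05, beside 3311 of all 19647 genes. Fkbp5 had a log2 fold change of 0.12 and Sgk1 one of 0.12. Of 18 clock genes 0 passed in the 3 tools (4 unadjusted), and their median was -0.07.

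Of 20 neuropeptide genes 2 rose, Cort and Npy, and none fell (against 1.44% and 0.707% of all genes). Cort, which encodes cortistatin (chr4:149125034-149126763), lay at 4.19 to 6.05 CPM (median 5.54) under the label 6NJ and 1.25 to 2.71 CPM (median 2.07) under 6J, without overlap. Its log2 fold change was 1.42 ± 0.16 (adjusted p = 1.89e-07). Npy, neuropeptide Y, lay at 34.8 to 48.1 CPM (median 41.3) against 26.0 to 32.4 CPM (median 29.5), also without overlap, and rose by 0.48 ± 0.09 (adjusted p = 0.0024). Sst, somatostatin, marks cells that often make Cort and had a log2 fold change of 0.23 with overlapping groups (adjusted p = 0.207). The summed level of 19 interneuron markers was nearly the same under both labels, with medians of 1255 and 1258 CPM. In bulk tissue, more cells of a type and more RNA per cell cannot be told apart.

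Crhbp, which binds and buffers corticotropin-releasing hormone (chr13:95431371-95444924), was the 1 of 19 stress hormone and opioid receptor genes to pass (2.14% of all genes passed). It lay at 17.99 to 27.4 CPM (median 22.5) against 12.2 to 16.6 CPM (median 14.01) and rose by 0.64 ± 0.09 (adjusted p = 1.70e-05). Crh itself, at 1.05 to 1.78 CPM under 6NJ, had a log2 fold change of 0.30 (adjusted p = 0.403). Among synaptic genes the calls were single: Cnih3, an auxiliary subunit of AMPA receptors (0.34, adjusted p = 0.00138), the serotonin receptor Htr4 (0.37, adjusted p = 0.0161), the kinase Prkce (0.23, adjusted p = 0.0107) and the calmodulin-binding Nrgn (0.31, adjusted p = 0.0156, and 0.0572 without 39A). Without the 3 libraries rich in choroid plexus RNA, Htr4 and Prkce did not pass (adjusted p = 0.0957 and 0.0777), nor did Prkce with only the groups compared (0.0653). With choroid plexus levels as a covariate, Htr4 and Prkce passed (adjusted p = 0.0152 and 0.00959). The 4 genes were 1 of 30 glutamate receptor genes, 1 of 12 serotonin receptors and 2 of 31 plasticity genes, against 2.14% of all genes. Of 39 potassium channels 0 passed in edgeR (8 with an unadjusted p under 0.05) and 1 each in DESeq2 and limma-voom.

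Cell type markers showed few calls, where 2.14% of all genes passed. Dentate granule cell markers had a median log2 fold change of 0.29, with 1 of 13 called (Maml2, whose adjusted p was 0.0257, and 0.0788 without 39A), and their summed level had medians of 1008 CPM under 6NJ and 811 CPM under 6J (exact permutation p = 0.0238, adjusted 0.411). Bok, listed among the CA3 markers and known as a regulator of cell death, rose by 0.64 ± 0.10 (adjusted p = 0.000263), while the other 10 CA3 markers did not pass. Gja1, the astrocyte gap junction protein, lay at 196 to 248 CPM (median 208) against 246 to 264 CPM (median 253) and fell by 0.24 on the log2 scale (adjusted p = 0.00916). All 12 microglia markers had log2 fold changes below 0, with a median of -0.15, and all 12 choroid plexus markers too, with a median of -0.40. For both lists 0 passed in edgeR, DESeq2 or limma-voom (3 and 0 with an unadjusted p under 0.05). The part of cell makeup in the gene calls was not tested beyond the alternatives in the closing section. With choroid plexus or oligodendrocyte levels as a covariate, 448 and 368 genes passed.

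The remaining genes with the smallest p-values had both small and large fold changes. Nudt3, which degrades diphosphoinositol polyphosphates, and Bex2, a small adaptor protein of neurons, lay at 274 to 338 and 168 to 207 CPM against 216 to 243 and 140 to 149 CPM. Their log2 fold changes were 0.46 ± 0.05 and 0.41 ± 0.05 (adjusted p = 5.67e-07 and 7.78e-07). Snrpd1, a core protein of spliceosomal particles, rose by 0.45 ± 0.05 (adjusted p = 5.58e-07). Gm44164 had a log2 fold change of 2.10, with 474 against 100 summed counts. Gm43305 and AC102496.1 fell, with 403 against 1451 and 396 against 1441. With only the groups compared, Gm43305 had an adjusted p of 0.0563. Some called genes were neighbours: 20 runs of 3 or more called genes with gaps of at most 500 kb held 71 of the 421. In the run at chr17:27579382-27851968, Nudt3, the overlapping model RPS10-NUDT3 and Snrpc all rose. In the run at chr1:85793441-86530712, 5 of 14 tested genes rose, among them the nucleolar gene Ncl. This count was not set against a chance level.

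The question of whether the difference between labels changed with the session was tested directly. Against the home cage, the strain difference after shock and cue differed for 0 of 19647 genes (0%; 860 had an unadjusted p under 0.05, and DESeq2 also called 0). Against the cue alone it differed for 0 genes by edgeR (0%; 1369 with an unadjusted p under 0.05) and for 1 by DESeq2, the zinc finger gene Zbtb40 (0.76, adjusted p = 0.014 in DESeq2 and 0.132 in edgeR). The counts of strain calls in the single conditions were 183 in the home cage (0.931%), 535 after the cue (2.72%) and 421 after shock and cue. These counts alone do not show that the conditions differ. Of the 421 genes, 397 had the same direction in the home cage and 395 after the cue. Those libraries entered the same fit and its estimate of the spread, but not the fold change after shock and cue. Agreement in direction was not counted over all genes tested, so it has no background share here.

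Member by member, the other conditions gave similar values for Atf4, Cort and Crhbp, which were not the genes with the smallest p. Atf4 had log2 fold changes of 0.46 after shock and cue, 0.38 after the cue and 0.40 in the home cage, and Cort of 1.42, 1.65 and 1.40. Crhbp had 0.64, 0.64 and 0.83. The low-count gene mt-Tr had 3.69, 4.35 and 4.94 in the same order. Of the Atf4 targets, 9 rose after the cue and 6 in the home cage, where 294 and 113 of all 19647 genes rose. In VH after shock and cue 8 of them rose, where 103 of all genes did. For heat shock chaperones the median log2 fold change was 0.18 after shock and cue, -0.06 after the cue and -0.002 in the home cage. In VH after shock and cue their median was 0.14. Hspe1 had 0.24, 0.02 and 0.01, and the difference from the home cage was 0.24 (95% interval 0.04 to 0.43) with an unadjusted p of 0.0167 and an adjusted p of 1. Ahsa1 had 0.22, 0.02 and 0.02, with an unadjusted p of 0.0121 against the home cage and an adjusted p of 1. Maff, a rapid immediate early gene, had 0.54, -0.70 and -0.30, and its difference from the cue was 1.24 ± 0.30 with an adjusted p of 0.543. No difference between conditions was shown for these genes after adjustment over all genes.

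**Figure D4:**
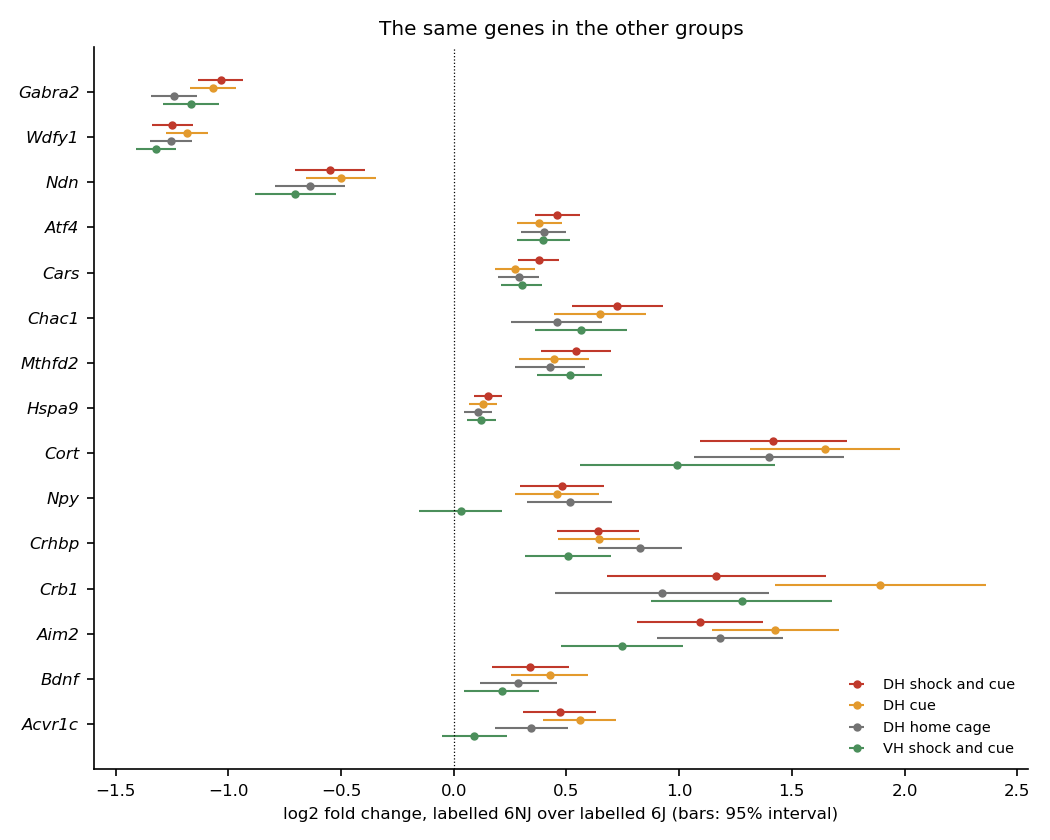
Log2 fold changes (labelled 6NJ over labelled 6J) of 15 genes with 95% intervals in DH after shock and cue, after the cue and in the home cage, and in VH after shock and cue. The 4 intervals lie close together for Wdfy1, Atf4 and Crhbp, while the VH values of Npy and Acvr1c are nearer 0 than those of DH; no gene passed the test of the difference between regions.

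In VH after shock and cue, 151 of 19597 genes differed between the labels (0.771%). Of the 419 DH calls tested in VH, 410 had the same direction there, and the share over all genes was again not counted. The strain difference differed between the regions for 0 of 20255 genes (0%; 683 with an unadjusted p under 0.05). Npy had 0.48 in DH and 0.03 in VH, a difference of 0.45 ± 0.13 with an unadjusted p of 0.00127 and an adjusted p of 0.9999. Acvr1c had 0.47 and 0.09, with an unadjusted p of 0.00104. At few counts, mt-Tr had 3.69 in DH and 0.56 in VH. Its difference was 3.13 ± 0.87, with an unadjusted p of 0.000612 and an adjusted p of 0.9999. DH and VH libraries share codes, and the fit with the code as a block is given in the closing section.

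Estimated counts of transcripts located some of the differences. Of 56523 transcripts tested 193 passed (0.341%), 158 higher and 35 lower. Of the 421 called genes, 103 had a called transcript, and all 103 had one in the direction of the gene. Atf4-201 had a log2 fold change of 0.49, Cort-201 of 1.44 and Chac1-201 of 0.75. Crhbp-202 changed more than its gene, with 13.0 to 22.4 CPM of estimated counts (median 16.3) against 5.35 to 9.34 (median 7.23) and a log2 fold change of 1.19 ± 0.16 (adjusted p = 1.63e-05). Nnt-206 had one of -1.17 ± 0.10 (adjusted p = 7.45e-10), and Nnt-201 one of 0.16 that did not pass. The 4 Wdfy1 transcripts with the smallest p have identical sequences in the annotation, so their values cannot be told apart.

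In 3 genes transcripts passed in both directions. Gabra2-203 and Gabra2-204 fell by 1.09 and 1.11 on the log2 scale, whereas Gabra2-202, annotated as a retained intron, lay at 4.01 to 9.18 CPM of estimated counts (median 6.14) under the label 6NJ and 0.137 to 1.001 (median 0.454) under 6J. Its log2 fold change was 3.67 ± 0.34 (adjusted p = 1.17e-08). Hp1bp3, a chromatin protein related to histone H1, did not differ as a gene (log2 fold change 0.09, adjusted p = 0.127). Hp1bp3-202 rose from a median of 95.3 to 136 and Hp1bp3-201 fell from 55.4 to 29.2 CPM, each without overlap. Ssbp4-215 was at 8.55 to 11.5 under 6NJ and 0 to 0.425 under 6J, and Ssbp4-201 fell by 0.42 on the log2 scale (adjusted p = 0.00768). The Ssbp4 gene had a log2 fold change of -0.02. Estimated counts of overlapping transcripts depend on how shared reads are divided, which limits these values.

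**Figure D5:**
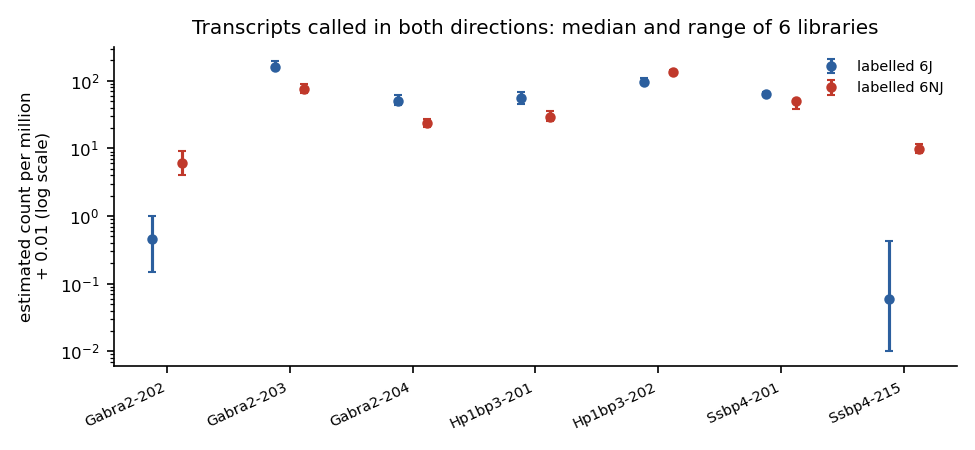
CPM of estimated counts (+ 0.01, log axis) of the transcripts called in Gabra2, Hp1bp3 and Ssbp4, with the median and the range over 6 libraries per label. Gabra2-202, Hp1bp3-202 and Ssbp4-215 lie higher and the other 4 lower under the label 6NJ.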

How the data were processed

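Members of the comparison and the gene lists were chosen with earlier results of these data known. Per the labels' protocols, a stranded mRNA kit was used and 1 end of each fragment was read for 75 bp. The authors deposited raw gene counts for 55401 Ensembl genes and estimated counts for 119414 transcripts. Per the submitters' processing notes, FastQC, HISAT2, featureCounts, kallisto and DESeq2 were used with GRCm38. Versions and the strand setting of the counting are not stated there or in the labels.

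Gene counts of the 36 DH libraries were fitted together in edgeR 4.0.16 (R 4.3.3) with TMM, filterByExpr by group and robust glmQLFit. The quasi-likelihood F-test was adjusted by Benjamini-Hochberg with a threshold of 0.05. The 72 libraries were fitted together for differences between regions, and the 36 VH libraries for the VH comparison. Estimated counts were rounded to whole numbers. CPM values are scaled by TMM, and the SE is the log2 fold change divided by the square root of F. Intervals cover 95%. Calls on 37 gene lists are counts only, with no set test. Library measures used exact permutation tests. Symbols were found for 55141 genes in GENCODE vM21, also on GRCm38. Libraries of a group differed beyond counting noise, with a chi-square per degree of freedom of at least 9.13. The code was tested on simulated data.

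Genes were named as the 12 higher and 12 lower with the smallest p, members of the lists, and transcripts of these. A gene that this rule names is not reported here. Other genes (Gm28438, mt-Tf, mt-Tv, RPS10-NUDT3, Snrpc, Ncl and those of the difference tests) were chosen after their values were seen. The alternative without 31B, 37A and 37C was also chosen after the data were seen. The alternatives were RLE factors, other filters, DESeq2 1.42.0, only the groups compared, limma-voom 3.58.1 with code numbers as random effects, marker covariates, left-out libraries (for the tests between conditions also cue and home cage libraries high in Lcn2, and cue library 40A), and the code as a block.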

Additional observations from a re-analysis of the deposited data

Results flagged for a closer look

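In 158 sets of 6 libraries examined, 12 (7.59%) held a library far from the other 5, where chance gives about 5%. Among genes under the label 6NJ these were mt-Nd3 (8.52 CPM in 39B), Rpl27 (50.7 CPM in 39B), Tmem181b-ps (41.5 CPM in 39C), Aim2 (5.95 CPM in 39C) and Cnih3 (69.8 CPM in 37A), each the highest of its 6. Under the label 6J, Gabra2 was highest in 33C (271 CPM), Htr4 in 31A (15.2 CPM) and Sgk1 in 33B (97.2 CPM), and Nars was lowest in 31A (145 CPM). Rpl27 passed in 3 of 12 cases with single libraries left out, and had an adjusted p of 0.108 without 39B. The other 8 genes kept their call or lack of one when any 1 of the 12 libraries was left out.

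Summed marker levels stood apart for astrocytes in 39B (7030 CPM, with the others at 6060 or less), for striatum in 37C (49.8 CPM) and for choroid plexus in 31B (6790 CPM, with the next at 2330). Their part in the gene differences was not tested beyond leaving out libraries and the choroid plexus covariate.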

How the results depend on the processing

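The count of 421 genes became 254 with no low-count filter, 701 by DESeq2, 257 with only the groups compared, 635 by limma-voom (code numbers as random effects), and 231 without 31B, 37A and 37C (added after the data were seen). In the limma-voom fit the estimated correlation of libraries sharing a code number was -0.0357. No code number was shared between the labels, so that fit is no guard against differences between code numbers. Leaving out single libraries gave 211 (without 39A) to 683 (without 37C) genes; 268 passed without 33B, 248 without 33C, 237 without 37A, 279 without 37B and 280 without 39C. The count of 193 transcripts became 538 by DESeq2 and 81 with only the groups compared. For these counts the cause was not tested. The difference from the cue gave 1 gene by DESeq2 in place of 0. None of the 60 genes and 16 transcripts followed singly changed direction: of 732 values, 684 stayed on their side of the threshold, 44 lost and 4 gained a call. Most of these were followed because they had passed, and left-out libraries entered only as the fits with the highest and lowest adjusted p. The 732 values thus do not describe the 421 calls as a whole. Of the 421 genes, 228 passed with only the groups compared and 209 without 39A. The 4 gains were all Egr2, at -0.63 by DESeq2 (adjusted p = 0.0254), -0.63 by limma-voom (0.0127), -0.62 with the choroid plexus covariate (0.0458) and -0.69 with 1 library left out (0.0479). The count of Atf4 targets called, 10, ranged from 8 to 11, the 11 including Slc7a11 as lower by DESeq2 and limma-voom. The count of heat shock chaperones, 4, ranged from 1 to 5.

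With the code as a replicate block, the difference between regions gave 0 genes, as it did without the block. Deviations of DH and VH libraries of the same code correlated at 0.013 to 0.526, and 7 of 12 DH libraries correlated best with their own code, which is a hint from the data and not the design.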
